A study of Mus musculus with 13 samples.

Results

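The 10 genes described here mark hepatic stellate cells and the myofibroblasts that arise from them: Acta2, Tagln, Des, Pdgfrb, Pdgfra, Reln, Lox, Loxl2, Dcn and Lum. They were taken as a named list and found in the deposited counts through their Entrez identifiers. All 10 were present among the 23079 genes of one table and the 23725 genes of each of the other 2, and all 10 passed the filter on low counts in every comparison. Liver RNA of 13 mice of the strain given as C57, 3 months of age, was sequenced: 5 mice without bile duct ligation and labelled non treated (no BDL), 4 ligated mice given a control oligonucleotide (miR-Ctrl BDL) and 4 ligated mice given an inhibitor of miR-873-5p (anti-miR-873-5p BDL). Per the study's methods the mice were male and wild type for Gnmt, and those ligated received 60 µg of a hairpin oligonucleotide in the tail vein, carried by Invivofectamine, on days 3 and 5 after surgery, with the liver taken on day 7. The labels name no sham surgery and no oligonucleotide for the no BDL mice, so surgery, bile duct obstruction and injection cannot be told apart in comparisons with them. One count table was deposited per comparison, and total counts ran from 12185333 to 19689037 per mouse.

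Quiescent stellate cells lie between hepatocytes and sinusoidal endothelium, store vitamin A as retinyl esters and carry desmin, reelin and the PDGF receptors. In an injured liver they lose their lipid droplets, respond to PDGF and become contractile myofibroblasts that express smooth muscle actin and deposit collagen, which lysyl oxidases crosslink and small leucine-rich proteoglycans bind. After obstruction of the bile duct, fibroblasts of the portal tract are a further source of myofibroblasts, and smooth muscle of the vessel walls also expresses Acta2, Tagln and Des, so none of these genes belongs to one cell type alone.

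Acta2 is the customary marker of the myofibroblast, and its promoter is shown because the contractile genes among the 10 are known targets of serum response factor, which binds the CArG box. The window lies on the minus strand at chr19:34255324-34255623 of GRCm38.p6. It covers 250 bases before and 50 bases after a start site taken from RefSeq. That site lies downstream of the upstream end of the gene span given below, 34255585. Capitals mark, from left to right, a GGAATG, the core bound by TEAD factors, and 2 CArG-like elements, defined as a CArG box with at most 1 G or C among its 6 central bases.
Acta2 promoter: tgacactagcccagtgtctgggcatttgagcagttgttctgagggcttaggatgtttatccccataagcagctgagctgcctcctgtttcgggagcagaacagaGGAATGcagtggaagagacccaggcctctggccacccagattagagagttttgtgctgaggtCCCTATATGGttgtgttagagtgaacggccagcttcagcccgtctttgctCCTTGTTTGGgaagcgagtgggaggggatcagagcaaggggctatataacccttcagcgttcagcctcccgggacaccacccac
The CArG-like elements began at -84 and -34 from that start site, and their distance from any other start of the gene was not computed. Searched on both strands, a CArG-like element was present in 10% of 27025 RefSeq promoters of this length and at least 2 in 0.836%, GGAATG was present in 14.6%, and the strict CArG box, of which every match is also CArG-like, in 1.57%. Promoters were at hand for 4 of the 10 genes, and those of Des, Pdgfra and Reln held none of these letters, nor did any of the 4 hold the AP-1 element TGANTCA, found in 7.93% of promoters.

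The inhibitor in the third group is directed against miR-873-5p. RefSeq lists the mouse miRNA as mmu-miR-873a-5p, on the minus strand at chr4:36668556-36668576 of GRCm38.p6, shown here with its seed, bases 2 to 8, in capitals.
mmu-miR-873a-5p: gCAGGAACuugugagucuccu
A match to this seed occurred in the longest annotated 3′ UTR of 1 of the 10 genes, Tagln, which held 1, beside 15.4% of the 21173 genes with an annotated 3′ UTR.

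Beside the stellate label of the genes, 7 stellate markers were read. Their reads cannot show from which cells the reads of the 10 genes came, and their calls with ligation are given below. Lrat, the enzyme that makes retinyl esters, was measured at 3.89 to 20.7 normalized counts in the no BDL mice, 4.02 to 19.1 in miR-Ctrl BDL and 4.85 to 19.7 with anti-miR-873-5p, where a normalized count is the CPM that edgeR gives when the libraries of all 13 mice are scaled together. Each of the 7 markers (Lrat, Reln, Des, Pdgfrb, Hand2, Lhx2 and Colec11) had reads in these livers, 3 of them being among the 10 genes, and Colec11, a secreted lectin, was the most abundant per kilobase of exon. In pieces of whole liver, fewer cells of a type and less RNA per cell cannot be told apart.

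A pair of livers stood apart from the others of their groups. The table that compares both ligated groups directly holds anti-miR-873-5p mice 1, 3 and 4 beside miR-Ctrl mice 1, 2 and 4, while anti-miR-873-5p mouse 2 and miR-Ctrl mouse 3 appear only in the tables against no BDL. That table is labelled as having no outliers. Per the study's methods, any outliers were removed once clustering and principal component analysis had compared the samples of each group. The test between the ligated groups therefore used only mice that the authors kept. Anti-miR-873-5p mouse 2 and miR-Ctrl mouse 3 were each below the other 3 mice of their group for 8 of the 10 genes (Acta2, Tagln, Des, Pdgfrb, Reln, Loxl2, Dcn and Lum). The share of all genes for which each was the lowest was not counted. The summed level of the 7 stellate markers was 29.4 normalized counts in miR-Ctrl mouse 3, against 73.7 to 109 in the other 3 mice of that group, and 42.9 in anti-miR-873-5p mouse 2, against 105 to 138. These livers were also low in the endothelial receptor gene Kdr, at 0.464 and 2.53 against 4.98 to 11.8 in the other ligated mice. The cholangiocyte marker Spp1 was at 375 and 180 in these livers against 999 to 1540 in the other ligated mice. The hepatocyte gene Tat was at 3285 and 4478 against 394 to 832, while the hepatocyte gene Alb, at 31864 and 61429, went both ways against 28387 to 59435. Both livers held the highest levels of the mesothelial marker Msln, at 30.9 and 24.9 against 3.97 to 16.2. Values without them are therefore given for each of the 10 genes and wherever leaving them out changes the count of a list.

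**Figure D1:**
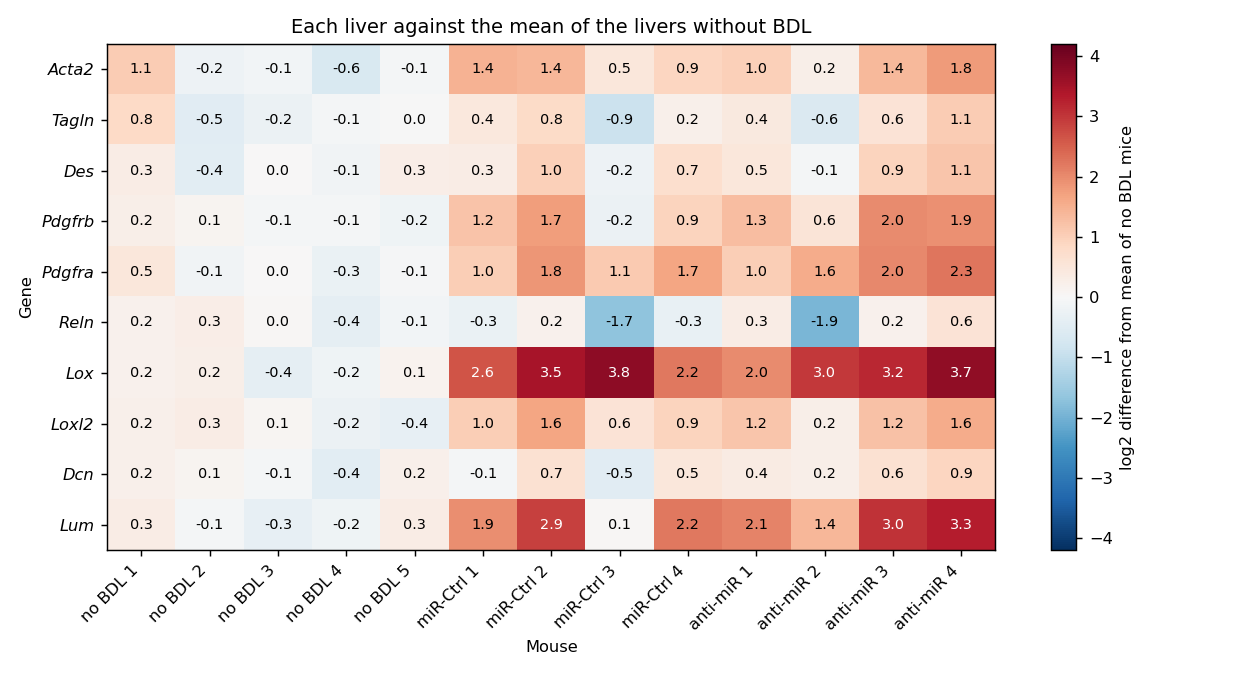
Colour and number give the log2 difference of each liver (columns) from the mean of the 5 no BDL livers for each of the 10 genes (rows), on the scale of log2(normalized count + 0.5). The columns of anti-miR-873-5p mouse 2 and miR-Ctrl mouse 3 are the palest or bluest of the ligated mice for most genes, with medians of 0.25 and -0.08, but not for Lox or Pdgfra. Columns named anti-miR are anti-miR-873-5p BDL.

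The tables did not hold the same counts for the same mouse. Of 23019 genes in all 3 tables, 773 differed in at least 1 mouse, and 5 of the 10 genes were among them. The table of miR-Ctrl BDL and no BDL differed from both others, which were identical for the mice they share. For Acta2 a single read separated them, with 180 reads in miR-Ctrl mouse 2 in one table and 181 in the other. Des differed by 1 read in 1 mouse, and Pdgfra and Loxl2 by at most 5 reads in any mouse. Lox differed most, with 42, 87 and 34 reads in miR-Ctrl mice 1, 2 and 4 in the table with no BDL and 64, 120 and 46 in the table of both ligated groups, so that the first held 65.6%, 72.5% and 73.9% of the second. Tagln, Pdgfrb, Reln, Dcn and Lum had identical counts in all tables. Levels set side by side across the 3 groups below take the larger Lox counts except in miR-Ctrl mouse 3, whose 108 Lox reads exist only in the table with the smaller ones, while each test used the counts of its own table.

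**Figure D2:**
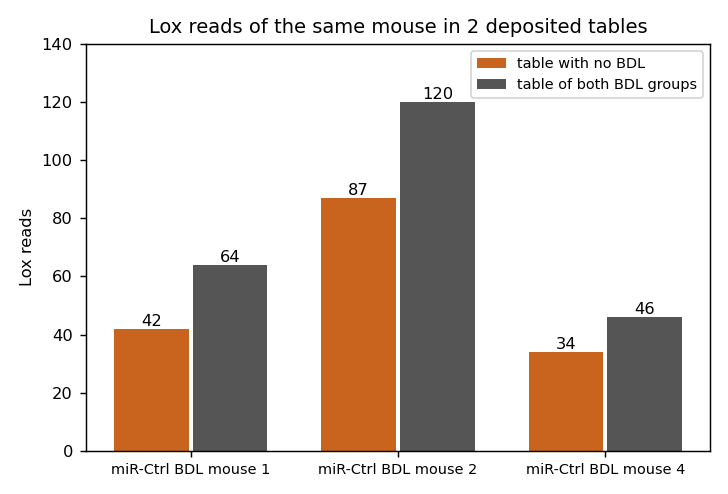
Bars give the Lox reads of the 3 miR-Ctrl BDL mice present in both tables, as deposited and without scaling, with the count above each bar. In each mouse the table with no BDL holds fewer reads than the table of both ligated groups.

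Per kilobase of exon, Dcn was the most abundant of the 10 genes in every group, at 15.6 ± 2.70 normalized counts per kb (SD, n = 5) without BDL, 17.8 ± 6.13 (SD, n = 4) in miR-Ctrl BDL and 22.7 ± 4.68 (SD, n = 4) with anti-miR-873-5p. Without BDL, Tagln came next at 4.34 ± 1.85 and Lum after it at 2.13 ± 0.478, and the ranges of these 3 genes over the mice did not overlap. The ranges of Lum, Acta2, Pdgfrb, Loxl2, Reln and Des overlapped from each gene to the next in this order (Des at 0.996 ± 0.234), and Pdgfra at 0.305 ± 0.0784 and Lox at 0.0336 ± 0.0243 stood apart at the bottom. After ligation Lum moved to second place, at 9.44 ± 5.94 in miR-Ctrl BDL and 14.1 ± 7.71 in anti-miR-873-5p BDL, and every gene overlapped with the next in both groups. These levels rest on exon lengths of a later annotation, and the position of Tagln and Loxl2 is uncertain because 58.3% and 45% of the 50-base windows of their transcripts also occur in another annotated gene. For Tagln this is mainly the antisense transcript Gm48529, which the library kit, which does not mark strand, cannot separate, and for Loxl2 it includes the pseudogene Gm21451. Of their windows, 2.98% and 1.81% are shared with a gene that has a row of its own in the deposited tables.

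With ligation and miR-Ctrl, 6 of the 10 genes were higher than without BDL (Acta2, Pdgfrb, Pdgfra, Lox, Loxl2 and Lum), none was lower, and 4 did not pass the threshold, an adjusted p of 0.05 by edgeR's quasi-likelihood test over 13072 genes. Among all genes tested, 19.1% were called higher and 16.6% lower. With ligation and anti-miR-873-5p, 6 were likewise higher (Pdgfrb, Pdgfra, Lox, Loxl2, Dcn and Lum) and none lower, beside 13.1% and 8.44% of 13130 genes. The median log2 fold change of the 10 genes was 1.13 and 1.2, beside -0.011 and -0.007 over all genes. Every mouse of the ligated group lay above every no BDL mouse for 3 genes in the first comparison and 5 in the second, beside 14.1% and 9.64% of all genes tested. Both comparisons use the same 5 no BDL mice. Without the outlying mouse of each ligated group, 7 and 8 of the 10 genes were called higher, beside 22.2% and 18.4% of all genes tested in those fits.

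**Figure D3:**
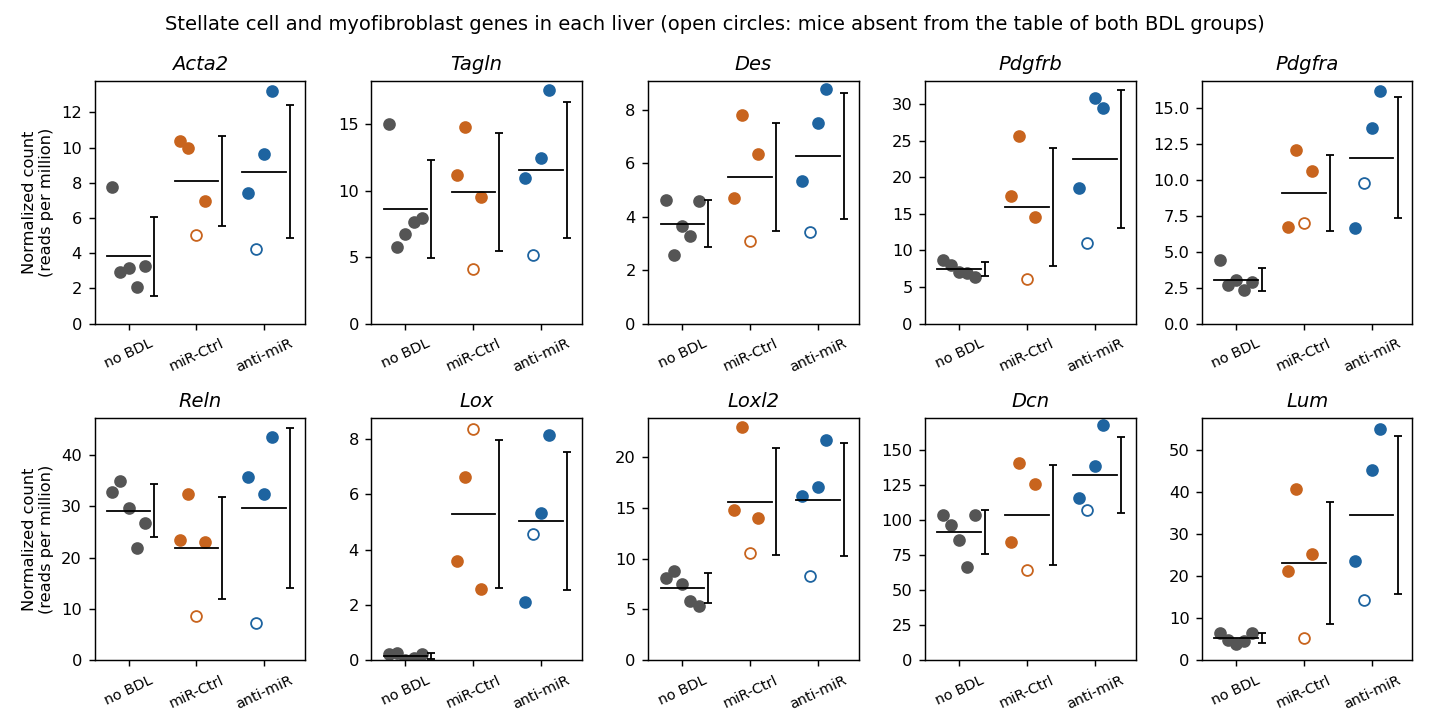
Each panel plots the normalized count (CPM, linear axis from 0) of 1 gene in each of the 13 livers, with the group mean as a line and the SD as the bar beside it. Anti-miR stands for anti-miR-873-5p BDL, and open circles are anti-miR-873-5p mouse 2 and miR-Ctrl mouse 3. For Lox and Pdgfra all ligated mice sit above all no BDL mice, while for Tagln and Reln the groups lie on top of each other.

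Of the contractile genes, Acta2 (Entrez 11475, chr19:34240336-34255585) encodes smooth muscle actin, the filament that gives the myofibroblast its pull. Its normalized counts were 7.75, 2.92, 3.18, 2.06 and 3.24 in no BDL mice 1 to 5, a mean of 3.83 ± 2.24 (SD, n = 5). They were 10.4, 10, 5.03 and 6.96 in miR-Ctrl mice 1 to 4, with a mean of 8.10 ± 2.56 (SD, n = 4). The anti-miR-873-5p mice gave 7.42, 4.21, 9.63 and 13.2, with a mean of 8.63 ± 3.8 (SD, n = 4). No BDL mouse 1 was within the range of both ligated groups, and the other 4 no BDL mice were below every ligated mouse. The log2 fold change was 1.11 ± 0.37 (SE) for miR-Ctrl BDL against no BDL, a 2.16-fold difference with an edgeR adjusted p of 0.0412, and 1.21 ± 0.41 for anti-miR-873-5p BDL, a 2.31-fold difference with an adjusted p of 0.0621. The first call held in 2 of the 9 fits that left out 1 mouse, those without no BDL mouse 1 (1.53, adjusted p = 0.00485) and without miR-Ctrl mouse 3 (1.27, adjusted p = 0.0195), and the adjusted p rose to between 0.0613 and 0.108 in the other 7. The second difference passed the threshold without no BDL mouse 1 (1.63, adjusted p = 0.0197) and without anti-miR-873-5p mouse 2 (1.42, adjusted p = 0.0204).

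Tagln (Entrez 21345, chr9:45929628-45936058) encodes transgelin, an actin-binding protein of smooth muscle and myofibroblasts. No BDL mice 1 to 5 gave 15.0, 5.75, 6.75, 7.62 and 7.96 normalized counts, miR-Ctrl mice 1 to 4 gave 11.2, 14.8, 4.10 and 9.57, and anti-miR-873-5p mice 1 to 4 gave 11, 5.2, 12.5 and 17.6. The lowest liver of each ligated group was below all no BDL livers, and the groups overlapped throughout. The log2 fold changes of 0.24 ± 0.37 (SE, edgeR adjusted p = 0.656) and 0.46 ± 0.36 (adjusted p = 0.390) did not pass the threshold, with 95% intervals of -0.59 to 1.06 and -0.34 to 1.26. Without miR-Ctrl mouse 3 and without anti-miR-873-5p mouse 2 they were 0.48 (adjusted p = 0.214) and 0.69 (adjusted p = 0.1). No BDL mouse 1 was the highest of its group for both Acta2 and Tagln.

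Around these genes, 12 of 18 tested genes of a list of contractile proteins and targets of serum response factor were higher in miR-Ctrl BDL and none lower, and 7 of 18 were higher in anti-miR-873-5p BDL and none lower (12 of 18 and 11 of 19 without the outlying mice). The largest rise was that of Tagln2, a transgelin found in many cell types, with log2 fold changes of 3.03 and 2.65 (edgeR adjusted p = 3.89e-05 and 0.000515). Myl6, the non-muscle myosin light chain and the most abundant of the list per length, gave log2 fold changes of 0.37 and 0.33 (adjusted p = 0.0603 and 0.126), which passed at 0.45 and 0.41 without the outlying mice (adjusted p = 0.0132 and 0.0344). Tpm2, a muscle tropomyosin, had the smallest values, -0.62 and -0.35 (adjusted p = 0.185 and 0.562). The list contains genes of nearly all cells beside those of smooth muscle. Of 7 markers of vascular smooth muscle, 2 were tested, both also in that list: Smtn gave log2 fold changes of 1.10 in each comparison (adjusted p = 0.0334 and 0.0100) and Myh11 -0.13 and 0.04 (adjusted p = 0.887 and 0.960), or 0.23 and 0.31 without the outlying mice (adjusted p = 0.613 and 0.593). Smooth muscle markers summed to 4.88 to 8.71 normalized counts without BDL, 3.33 to 15.9 in miR-Ctrl BDL and 7.16 to 14.0 with anti-miR-873-5p. The part of smooth muscle RNA in the levels of Acta2 and Tagln was not tested.

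Des (Entrez 13346, chr1:75360292-75368579) encodes desmin, the intermediate filament by which rodent stellate cells are commonly stained. It was measured at 4.64, 2.56, 3.65, 3.28 and 4.57 normalized counts in the no BDL mice, 4.69, 7.80, 3.10 and 6.35 in miR-Ctrl BDL and 5.33, 3.44, 7.50 and 8.77 with anti-miR-873-5p. Of the ligated livers, 6 were above every no BDL liver, and the outlying mouse of each ligated group was within the no BDL range. The log2 fold changes were 0.58 ± 0.28 (SE, edgeR adjusted p = 0.135) and 0.77 ± 0.29 (adjusted p = 0.0797), neither past the threshold. Without those mice they were 0.76 and 0.96, and both passed (adjusted p = 0.0253 and 0.0136).

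Among 5 partners of desmin in the intermediate filament network, Vim (vimentin) had log2 fold changes of 2.14 in miR-Ctrl BDL and 1.98 with anti-miR-873-5p (edgeR adjusted p = 0.000214 and 0.00115), and the small heat shock protein gene Cryab 1.05 and 1.29 (adjusted p = 0.00939 and 0.0137). Plec, which encodes the linker plectin, was higher in miR-Ctrl BDL, at 0.75 (adjusted p = 0.00559), and gave 0.41 with anti-miR-873-5p (adjusted p = 0.0575). Synm (synemin) and Nes (nestin) did not pass in either comparison, with log2 fold changes between 0.36 and 0.44.

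Reln (Entrez 19699, chr5:21884454-22344705) encodes reelin, a secreted glycoprotein that stellate cells make in the quiescent and the activated state. The no BDL livers gave 32.8, 35.0, 29.6, 21.9 and 26.7 normalized counts, the miR-Ctrl livers 23.5, 32.5, 8.59 and 23.1, and the anti-miR-873-5p livers 35.7, 7.23, 32.4 and 43.5. The lowest value in each ligated group belonged to the outlying mouse, at less than every no BDL liver, and the remaining livers overlapped with those without BDL. The log2 fold changes of -0.38 ± 0.31 (SE, edgeR adjusted p = 0.374) and 0.06 ± 0.40 (adjusted p = 0.927) were within the spread between mice, with 95% intervals of -1.08 to 0.32 and -0.82 to 0.95. Without the outlying mice they were -0.13 and 0.37 (adjusted p = 0.586 and 0.105). The first was below 0 in every fit that left out 1 mouse, and the second was on either side of 0.

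In a list of 20 genes of quiescent stellate cells, 18 were tested. With miR-Ctrl 1 was higher and 4 were lower, beside 19.1% and 16.6% of all genes tested. With anti-miR-873-5p 5 were higher and 2 lower, beside 13.1% and 8.44%. Without the outlying mice the counts were 4 and 4, and 6 and 2. The calls to the lower side were near the share of all genes. The lowest was Vipr1, a receptor for vasoactive intestinal peptide, with log2 fold changes of -1.63 and -1.25 (edgeR adjusted p = 0.00143 and 0.0141). Steap4, a metalloreductase, was the most abundant of the list per length and had the largest change in miR-Ctrl BDL, 1.70 (adjusted p = 0.0770). Its normalized counts were 95.7 to 890 without BDL and 428 to 1736 in miR-Ctrl BDL, with the highest in miR-Ctrl mouse 3. Without that mouse Steap4 gave 1.26 (edgeR adjusted p = 0.166) and no longer had the largest change of the list. Of 7 stellate markers, 1 was called higher in miR-Ctrl BDL (Pdgfrb) and 2 with anti-miR-873-5p (Pdgfrb and Hand2), and none was called lower. Hand2, a transcription factor, gave a log2 fold change of 0.67 there (edgeR adjusted p = 0.0424), which did not pass without anti-miR-873-5p mouse 2 (adjusted p = 0.0551), where Des passed in its place. Without miR-Ctrl mouse 3, Des joined Pdgfrb. The transcription factor gene Lhx2 had the smallest of their log2 fold changes in miR-Ctrl BDL, -0.82 (adjusted p = 0.121), and Lrat gave 0.00 and 0.18 (adjusted p = 0.996 and 0.809).

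Both PDGF receptors were higher after ligation. Pdgfrb (Entrez 18596, chromosome 18), the receptor through which PDGF drives division and migration of stellate cells, was measured at 8.71, 8.04, 6.99, 6.86 and 6.41 normalized counts without BDL. It gave 17.4, 25.7, 6.11 and 14.6 in miR-Ctrl BDL and 18.5, 11, 30.8 and 29.5 in anti-miR-873-5p BDL. All ligated livers except miR-Ctrl mouse 3, which was below the lowest no BDL liver, were above every no BDL liver. The log2 fold change was 1.14 ± 0.33 (SE, edgeR adjusted p = 0.0225) in miR-Ctrl BDL, a 2.20-fold difference, and 1.64 ± 0.28 (adjusted p = 0.00447) with anti-miR-873-5p, a 3.11-fold difference. The first call was lost without no BDL mouse 4 (adjusted p = 0.0510), miR-Ctrl mouse 1 (adjusted p = 0.0532) or miR-Ctrl mouse 2 (adjusted p = 0.0724), and without miR-Ctrl mouse 3 the value was 1.40 (adjusted p = 0.000601). The second was 1.85 without anti-miR-873-5p mouse 2 (adjusted p = 0.000401).

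Pdgfra (Entrez 18595, chr5:75151322-75198206) encodes the receptor that stellate cells share with portal fibroblasts. Its normalized counts were 4.4, 2.65, 3.02, 2.36 and 2.88 without BDL, 6.71, 12.1, 6.97 and 10.6 in miR-Ctrl BDL and 6.67, 9.76, 13.6 and 16.2 in anti-miR-873-5p BDL. Every ligated liver was above every no BDL liver, the outlying pair included. The differences were 3.01-fold (log2 1.59 ± 0.24 SE, edgeR adjusted p = 0.00110) and 3.85-fold (log2 1.94 ± 0.28, adjusted p = 0.00235), and both held in each of the 9 fits that left out 1 mouse, at 1.69 and 2.01 without the outlying mice. Of the 4 genes of their ligands, Pdgfb had log2 fold changes of 1.68 and 1.78 (adjusted p = 0.0101 and 0.0327) and Pdgfa, the most abundant of them per length, 1.28 and 1.15 (adjusted p = 0.0148 and 0.0109). Pdgfc was called higher in miR-Ctrl BDL, at 1.05 (adjusted p = 0.0470), and gave 0.94 with anti-miR-873-5p (adjusted p = 0.193). Pdgfd was low in all groups, at 0.369 to 3.13 normalized counts, and its log2 fold changes of 0.23 and 1.04 did not pass (adjusted p = 0.712 and 0.177).

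Among the 10 genes the largest difference was that of Lox, a collagen crosslinking enzyme. Lox (Entrez 16948, chromosome 18) encodes lysyl oxidase, which oxidizes lysines of collagen and elastin so that the fibres can crosslink. In the table with miR-Ctrl BDL the 5 no BDL mice had 0 to 3 Lox reads each, 6 in all, and the 4 miR-Ctrl mice 34 to 108 each, 271 in all. The pooled ratio per scaled library was 43.3, with a 95% exact binomial interval of 19.7 to 119 that covers counting error only. In the table with anti-miR-873-5p BDL there were 10 reads in the no BDL mice and 36 to 179 in each ligated mouse, 375 in all, a ratio of 33.8 with an interval of 18.2 to 71.1. No liver without BDL came near a ligated one. The edgeR adjusted p was 0.000586 and 0.00109, at log2 fold changes of 5.40 ± 0.71 and 4.94 ± 0.56 (SE), and 4.89 and 4.99 without the outlying mice. On the joint scale the miR-Ctrl livers gave 3.58, 6.64, 8.36 and 2.56 normalized counts and the anti-miR-873-5p livers 2.09, 4.57, 5.32 and 8.17. Unlike the other genes, Lox was highest in miR-Ctrl mouse 3, the liver lowest in most of them, and in that table's own counts too it had the most Lox reads of the 4.

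Loxl2 (Entrez 94352, chr14:69608692-69695834), a secreted relative that also crosslinks collagen, was measured at 8.07, 8.75, 7.47, 5.87 and 5.31 normalized counts without BDL. It gave 14.8, 23.0, 10.6 and 14.0 in miR-Ctrl BDL and 16.2, 8.29, 17.1 and 21.7 in anti-miR-873-5p BDL. The single overlap was that of anti-miR-873-5p mouse 2, below no BDL mouse 2. The differences were 2.25-fold (log2 1.17 ± 0.24 SE, edgeR adjusted p = 0.00459) and 2.28-fold (log2 1.19 ± 0.26, adjusted p = 0.0132), and held in every fit that left out 1 mouse, at 1.31 and 1.39 without the outlying pair. Of the 3 further members of the family, Loxl1, which acts in elastic fibres, had log2 fold changes of 2.30 and 2.59 (adjusted p = 0.000970 and 0.00260), from 0.953 to 3.13 normalized counts without BDL to between 6.88 and 14.8 in ligated mice. Loxl3 gave 0.32 and 0.36 (adjusted p = 0.207 and 0.292) and Loxl4 0.79 and -0.29 (adjusted p = 0.387 and 0.791), and neither passed the threshold.

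The pair of proteoglycan genes, neighbours on chromosome 10, differed from each other. Lum (Entrez 17022, chr10:97565501-97572703) encodes lumican, which binds collagen fibrils and sets their diameter. Its normalized counts were 6.47, 4.77, 3.89, 4.50 and 6.41 without BDL, 21.1, 40.7, 5.34 and 25.3 in miR-Ctrl BDL and 23.5, 14.4, 45.3 and 55.1 in anti-miR-873-5p BDL. All ligated livers but miR-Ctrl mouse 3, which was within the no BDL range, were above every no BDL liver. The differences were 4.53-fold (log2 2.18 ± 0.46 SE, edgeR adjusted p = 0.00517) and 6.78-fold (log2 2.76 ± 0.37, adjusted p = 0.00187), held in all fits that left out 1 mouse, and without the outlying mouse of each group the log2 values were 2.49 and 3.01.

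Dcn (Entrez 13179, chr10:97479500-97518163) encodes decorin, a proteoglycan that binds collagen and TGF-beta. It gave 104, 96.4, 85.6, 66.6 and 104 normalized counts without BDL, 84.3, 141, 64.4 and 126 in miR-Ctrl BDL and 116, 107, 139 and 168 in anti-miR-873-5p BDL. The miR-Ctrl livers spanned the whole no BDL range, while the anti-miR-873-5p livers were all above it by a narrow margin. The log2 fold change was 0.21 ± 0.24 (SE, edgeR adjusted p = 0.512) and 0.57 ± 0.18 (adjusted p = 0.0491). The second call was lost in 6 of the 9 fits that left out 1 mouse, namely without no BDL mouse 1, 2, 3 or 4 or without anti-miR-873-5p mouse 3 or 4, where the adjusted p was 0.0699 to 0.146. Without the outlying mice the values were 0.38 (adjusted p = 0.138) and 0.65 (adjusted p = 0.0213). Tested directly between the ligated groups, Dcn gave 0.26 (adjusted p = 0.857).

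Of 10 further small leucine-rich proteoglycans, 7 were tested, 2 were higher in each comparison (Prelp and Bgn) and none was lower, with 3 in each without the outlying mice. Prelp, the most abundant of them per length, gave the largest log2 fold changes, 2.28 and 1.99 (edgeR adjusted p = 0.000858 and 0.00503), and Podn the smallest in miR-Ctrl BDL, -0.68 (adjusted p = 0.0777). Bgn (biglycan), the closest relative of decorin, gave 0.88 and 1.33 (adjusted p = 0.0246 and 0.0125). Epyc and Kera, which encode proteoglycans of cartilage and cornea, had 0 reads in all 13 livers. In a list of 24 matrix and activation genes, collagens included, 19 of 23 tested were higher in miR-Ctrl BDL and 19 of 22 with anti-miR-873-5p, and none was lower, with medians of 2.25 and 2.26 on the log2 scale, and 21 of 23 were higher in each without the outlying mice. Fn1 (fibronectin), also made by hepatocytes, was the most abundant per length and gave the smallest log2 fold changes, 0.12 and 0.13 (adjusted p = 0.686 and 0.639), of which the first turned to -0.12 without miR-Ctrl mouse 3 (adjusted p = 0.516). Over all 7 lists of related genes, 41 of 78 tested were higher and 4 lower with miR-Ctrl, beside 19.1% and 16.6% of all genes. With anti-miR-873-5p 38 of 77 were higher and 2 lower, beside 13.1% and 8.44%.

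**Figure D4:**
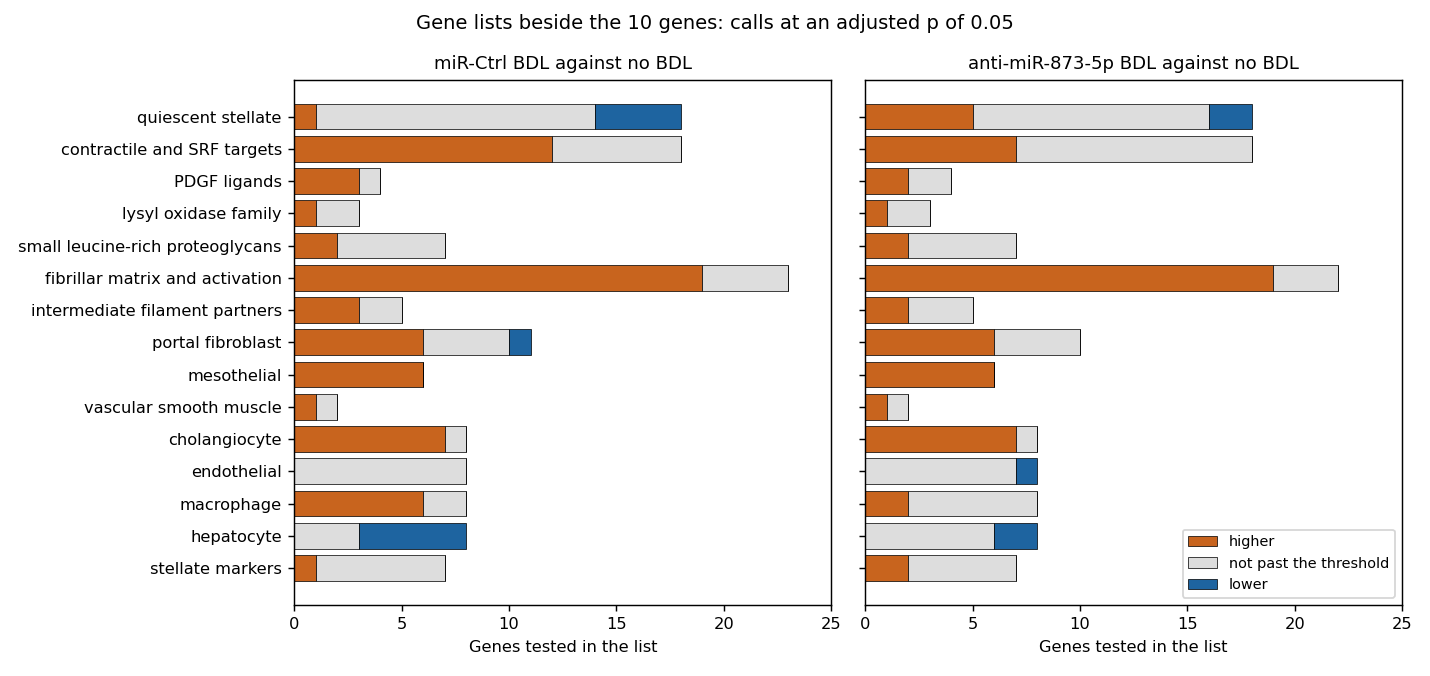
Stacked bars count the tested genes of each list that were higher, lower or not past an adjusted p of 0.05 in edgeR, for miR-Ctrl BDL (left) and anti-miR-873-5p BDL (right) against no BDL. Matrix genes were higher in 19 cases on both sides, while the list of quiescent stellate genes was mostly grey.

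Markers of other cell types moved with the ligation too. Of portal fibroblast markers, 6 of 11 tested were higher and 1 lower with miR-Ctrl and 6 of 10 higher in anti-miR-873-5p BDL, and without the outlying mice 8 of 11 and 10 of 11 were higher and none lower. Their summed level was 32.4 to 39.3 normalized counts without BDL, 45.2 to 83.7 in miR-Ctrl BDL and 40.5 to 127 with anti-miR-873-5p, and was lowest in the outlying mouse of each ligated group. Entpd2, an ectonucleotidase of these cells and the most abundant of the list per length, gave log2 fold changes of 1.43 and 1.45 (edgeR adjusted p = 0.00333 and 0.00427), Pi16 the largest in miR-Ctrl BDL, 2.58 (adjusted p = 0.00327), and Gas1 the smallest, -1.08 (adjusted p = 0.0433, or 0.0748 without miR-Ctrl mouse 3). All 6 tested mesothelial markers were higher in both comparisons, and their sum was 0.265 to 2.00 normalized counts without BDL, 15.0 to 57.6 in miR-Ctrl BDL and 13 to 47.7 with anti-miR-873-5p. Msln, the most abundant, had reads in 1 of the 5 no BDL livers, and Gpm6a, with the smallest change, gave 2.14 and 2.17 (adjusted p = 0.00650 and 0.0163). The part of portal fibroblast and mesothelial RNA in the values of the 10 genes was not tested.

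Of 8 tested cholangiocyte markers, 7 were higher in each comparison (7 and 8 without the outlying mice), and their sum, to which Spp1 (osteopontin) gave the most reads, was 65.3 to 147 normalized counts without BDL, 477 to 1638 in miR-Ctrl BDL and 238 to 1588 with anti-miR-873-5p. The tight junction gene Cldn4 had the largest log2 fold change in miR-Ctrl BDL, 4.62 (edgeR adjusted p = 7.86e-05). Macrophage markers were higher for 6 of 8 genes in miR-Ctrl BDL and 2 of 8 with anti-miR-873-5p (7 and 3 without the outlying mice), with Marco, a scavenger receptor, at 3.89 and 2.71 (adjusted p = 0.00682 and 0.0499, the second 0.0596 without anti-miR-873-5p mouse 2), Lyz2, the most abundant per length, at 2.11 and 1.94 (adjusted p = 0.00979 and 0.0250), and Clec4f, a Kupffer cell lectin, at 0.91 in miR-Ctrl BDL (adjusted p = 0.195, or 0.0489 without miR-Ctrl mouse 3). Their sum was 120 to 701 without BDL, 749 to 1777 in miR-Ctrl BDL and 476 to 1471 with anti-miR-873-5p. None of 8 endothelial markers was called in miR-Ctrl BDL, where Cdh5 gave the largest log2 fold change, 0.54 (adjusted p = 0.321), and Kdr the smallest, -1.35 (adjusted p = 0.0808, or 0.00165 at -0.98 without miR-Ctrl mouse 3). One endothelial marker was lower with anti-miR-873-5p, again Kdr, at -1.27 (adjusted p = 0.0385), and without the outlying mice 1 and 2 of the 8 were lower. Clec4g, the most abundant of them per length, gave -0.63 and -0.72 (adjusted p = 0.353 and 0.211), and the sums were 91.6 to 144, 31.8 to 144 and 46.4 to 136. Of 8 hepatocyte markers, 5 were lower with miR-Ctrl and 2 with anti-miR-873-5p (7 and 5 without the outlying mice), with Alb (albumin), the most abundant, at -0.80 and -0.82 (adjusted p = 0.0931 and 0.168), Cyp2e1 at -3.11 and -2.01 (adjusted p = 0.000130 and 0.00231) and Tat at 0.48 and 0.72 (adjusted p = 0.478 and 0.444), which turned to -0.51 and -0.67 without the outlying mice (adjusted p = 0.0411 and 0.0751). The hepatocyte sum was 91995 to 109307 normalized counts without BDL, 41450 to 70454 in miR-Ctrl BDL and 36980 to 81680 with anti-miR-873-5p, and what these shares of liver RNA do to the levels of the 10 genes was not tested.

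All values above are relative to libraries scaled so that most genes do not move. Scaled by library size alone, the median of all genes was 0.79 higher on the log2 scale after ligation with miR-Ctrl than without BDL and 0.82 higher in anti-miR-873-5p BDL. The calls then split into 9360 higher and 275 lower in place of 2491 and 2175 for miR-Ctrl BDL, and 10063 and 131 in place of 1715 and 1108 for anti-miR-873-5p BDL. The 20 most counted genes of each library took 32.3% to 47.7% of the reads without BDL and 23.6% to 28.9% after ligation. Under that scaling 9 of the 10 genes, all but Reln, were called higher in both comparisons, beside 71.6% and 76.6% of all genes, and relative to the median of all genes the 10 had medians of 1.19 and 1.26 in place of 1.14 and 1.21. In the lists, 23 of 23 and 22 of 22 matrix genes were then called higher, 15 of 18 contractile genes in each comparison, and 7 and 9 of 18 quiescent stellate genes with 1 and 0 lower, while hepatocyte markers split into 2 higher and 2 lower in each. All 8 macrophage and all 8 cholangiocyte markers were then called higher in both comparisons, and 3 and 1 of 8 endothelial markers were higher with none lower.

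Between the ligated groups the study asks what inhibition of miR-873-5p changed, and none of the 10 genes differed past the threshold with 3 mice against 3. In edgeR 0% of 13746 genes were called, 863 had an unadjusted p under 0.05, and the smallest adjusted p was 0.757, while DESeq2's Wald test called 17 genes higher and 9 lower with anti-miR-873-5p, none of them among the 10. All 10 log2 fold changes were above 0 in these mice, from 0.09 for Loxl2 to 0.51 for Lum, with a median of 0.28 beside 0.0057 over all genes. For all 10 the groups overlapped, but the share of all genes that did so was not counted, so the overlap is no result particular to the 10. The 10 genes share these 6 mice, so their common sign is not 10 observations. Without anti-miR-873-5p mouse 4, the highest liver for 9 of the 10 genes in its group, the median was 0.04 and Acta2, Tagln, Lox and Loxl2 were below 0.

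Acta2 gave 0.14 ± 0.25 (SE) between the ligated groups, with a 95% interval of -0.45 to 0.73 and an edgeR adjusted p of 0.933, whose bounds correspond to a 0.735-fold and a 1.66-fold level. For Dcn the log2 fold change was 0.26 with an interval of -0.26 to 0.79, and for Pdgfrb 0.45 with -0.17 to 1.07. Lox had the widest interval of the 10, -0.94 to 1.52 around 0.29, and gave -0.056 when all 4 mice of each group were compared, where miR-Ctrl mouse 3 enters with the lower Lox count of its table. Reln was the only gene of the 10 with an unadjusted p under 0.05 (0.0245), at 0.49 ± 0.17 with an interval of 0.08 to 0.90, and its adjusted p was 0.757. With all 4 mice Reln gave 0.44 ± 0.53 (adjusted p = 0.978).

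**Figure D5:**
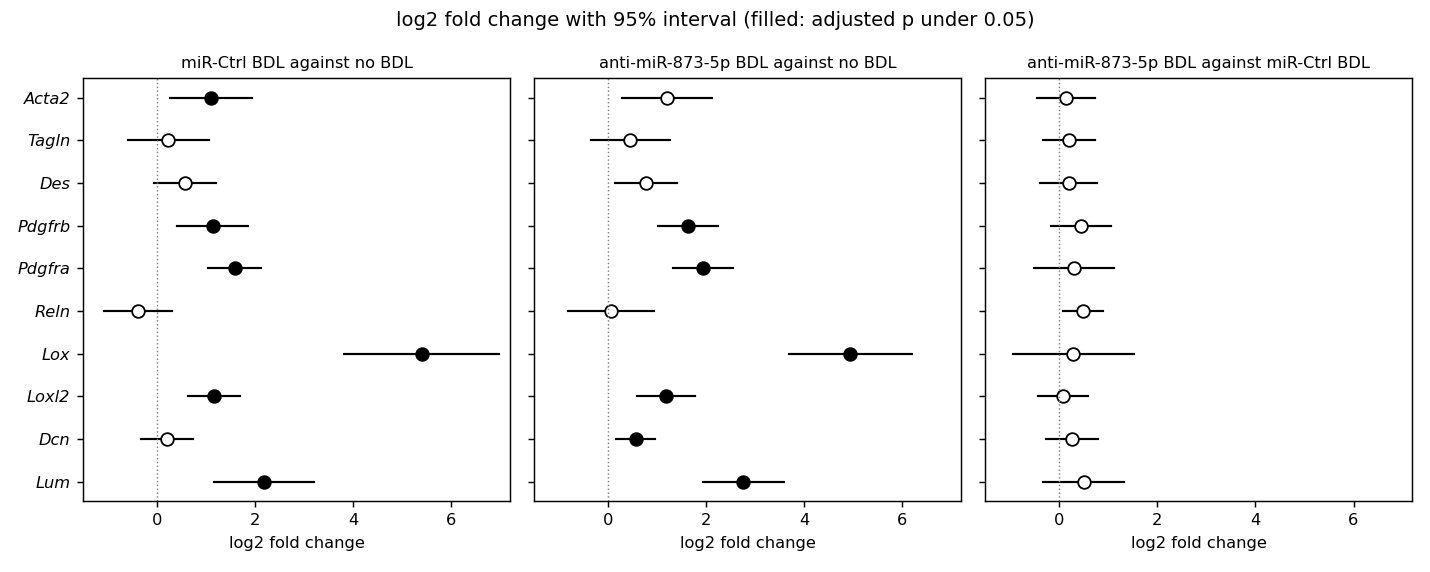
Points give the log2 fold change of each gene and lines its 95% interval for the comparisons named above the panels, and filled points have an adjusted p under 0.05 in edgeR. Lox lies far to the right of the other genes in both comparisons with no BDL, and in the comparison of the ligated groups no point is filled.

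Across the 9 mice of the table with miR-Ctrl BDL, each called gene was set beside the 4666 genes past the threshold there, by the root mean square difference of log2(normalized count + 0.5) taken relative to the no BDL mean. Nearest to Lum was Mmp2, a gelatinase, at 0.32, and nearest to Lox was Plat, the tissue plasminogen activator, at 0.24. Nearest to Acta2 was Slc52a3, a riboflavin transporter, at 0.26. Pdgfrb was nearest to Atp6v0e2 at 0.17, Pdgfra to Abcc5 at 0.15 and Loxl2 to Tmem200b at 0.17. Among the 10 genes themselves, Pdgfrb and Loxl2 were each other's nearest, at 0.29, and Loxl2 was also the nearest of the 10 to Acta2 at 0.41 and to Pdgfra at 0.36. Pdgfra was the nearest of the 10 to Lum at 0.63 and to Lox at 1.08. Other genes were nearer than the nearest of the 10 in each case: 660 for Lox, 200 for Lum, 119 for Pdgfra, 47 for Acta2, 37 for Loxl2 and 15 for Pdgfrb. Reln was the farthest from Lox at 2.34, and also the farthest from Lum and from Pdgfra. These distances describe 9 libraries that share their scaling, and all but those to Reln were computed on genes chosen for passing the same test.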

How the data were processed

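The deposited values are raw counts of reads per Entrez gene, 1 table per comparison, which the authors made from single reads of 50 nt (TruSeq RNA v2 libraries) aligned by TopHat to mm10. CASAVA 1.8.2, FastQC, Trim Galore and DESeq2 are also named in the submitters' processing notes. The counting program and its annotation are not given in the sources used here. Symbols were found for 23008 of 23079 and 23666 of 23725 identifiers.

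The main test was that of edgeR 4.0.16 under R 4.3.3 (filterByExpr, TMM scaling, quasi-likelihood test, Benjamini-Hochberg adjustment over all genes tested), run within each deposited table. The SE was derived from the log2 fold change and F, and 95% intervals use the test's degrees of freedom. DESeq2 1.42.0 was an alternative. Scripts were tested on simulated counts. Levels of all 13 mice were scaled together. Exon lengths, 3′ UTRs and shared windows came from GENCODE M21 (GRCm38), promoters and the miRNA from RefSeq. Mice were taken as separate animals from their labels.

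The 10 genes and the lists were chosen with earlier results of these data known. Genes named from lists are the most abundant per length, those with the largest and smallest log2 fold change in miR-Ctrl BDL among genes tested, markers at 0 and all genes of lists of up to 5. Of these, 2 are not reported here. Lrat, Hand2 and Bgn were named beside that rule after their values were seen. Alternatives were library size scaling, DESeq2's size factors, its Wald test, no filter beyond 1 count, a mean of at least 10 counts, 1 fit over all 3 groups, mouse number as a block, an adjusted p of 0.1, Acta2 counts of another table and leaving out each mouse. Chosen after seeing the data were the fits on all shared genes and those without the outlying mouse.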

Additional observations from a re-analysis of the deposited data

Results flagged for a closer look

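In groups of 4 or 5 mice, the gap of the highest or lowest mouse to its neighbour was compared with the range of the group by Dixon's 95% critical value, in 29 groups over the 10 genes, leaving out the group in which no mouse had over 3 reads. Chance gives about 1 such value in 20 groups. No BDL mouse 1 was far above the other 4 no BDL mice for Acta2, at 7.75 normalized counts against 2.06 to 3.24, a gap of 0.792 of the range. The same mouse was far above them for Tagln, at 15.0 against 5.75 to 7.96, a gap of 0.761 of the range. Both values belong to 1 liver, so they are not independent. In that liver all 10 genes were above the mean of the no BDL group, and Des (4.64), Pdgfrb (8.71), Pdgfra (4.4) and Lum (6.47) were also the highest of that group. Dcn was the highest there too, at 17.9 normalized counts per kb against 17.7 in no BDL mouse 5. Smooth muscle markers summed to 8.71 normalized counts, against 4.88 to 7.94 in the other 4 no BDL livers, of which Smtn gave 6.15 (3.28 to 4.53 in the others). Myh11, at 1.52, was below no BDL mice 2 and 3 (2.39 and 2.30). The part of smooth muscle RNA in these values was not tested.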

How the results depend on the processing

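The 6 calls with miR-Ctrl BDL came to 4 to 7 when 1 mouse was left out and the 6 calls with anti-miR-873-5p BDL to 5 to 8, while the calls in the lists of related genes (45 and 40) came to 37 to 51 and 31 to 48. Between the ligated groups 0 of the 10 genes and 0 listed genes were called in any of these fits. A fit of all 3 groups limited to genes with identical counts in the tables gave 2 calls in each comparison with no BDL. There 5 of the 10 genes have no value, and Dcn, with 0.54, missed the threshold with anti-miR-873-5p (adjusted p = 0.101). On all shared genes that fit gave 6 and 6, with Acta2 called (adjusted p = 0.0456) and Dcn again not (0.101) in anti-miR-873-5p BDL. DESeq2's Wald test added Acta2 there (adjusted p = 0.0273), and testing all genes with at least 1 count lost Dcn (0.0581). Library size scaling moved the listed calls with anti-miR-873-5p from 40 to 63 and those with miR-Ctrl from 45 to 60. Acta2 counts from the other table, DESeq2's size factors and a mean of at least 10 counts changed no call among the 10 genes, and an adjusted p of 0.1 added Acta2 and Des in anti-miR-873-5p BDL.

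Values near 0 changed sign. In miR-Ctrl BDL, Tagln ranged from -0.028 (without miR-Ctrl mouse 2) to 0.53 over the fits that left out 1 mouse. Reln was below 0 there in all settings but library size scaling. That scaling raises the median of all genes by 0.79, so its 0.47 for Reln is not a change of sign relative to other genes. In anti-miR-873-5p BDL, Reln ranged from -0.18 to 0.37 and was below 0 without no BDL mouse 4 (-0.026) and without mouse 1 (-0.042) or 4 of the ligated group. Between the ligated groups the ranges were -0.10 to 0.32 for Acta2, -0.014 to 0.40 for Tagln, -0.20 to 0.76 for Lox and -0.051 to 0.35 for Loxl2, each lowest without anti-miR-873-5p mouse 4. Acta2 was also below 0 without miR-Ctrl mouse 4 (-0.023), and Loxl2 without miR-Ctrl mouse 1 (-0.0097) or 4 (-0.048). Lox was -0.058 in the fit of all 3 groups and -0.056 with all 4 mice of each ligated group, both on all shared genes. The cause was not tested.

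The labels do not say that mouse numbers pair the groups. Deviations of same-numbered mice correlated at -0.08 to 0.03 and -0.21 to 0.09 in the comparisons with no BDL and at 0.37 and -0.03 between the ligated groups. These values cannot decide whether same-numbered mice shared a day of surgery or a batch, which was not tested. With the mouse number as a replicate block, 5 of the 10 genes and 42 listed genes were called in miR-Ctrl BDL (without Pdgfrb, 0.94), 4 and 31 in anti-miR-873-5p BDL (without Loxl2, 1.04, and Dcn, 0.61), and 0 and 0 between the ligated groups, and Reln in anti-miR-873-5p BDL was -0.15. Depth limits Lox most, at 0 to 3 reads per library without BDL.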
